A study of Mus musculus with 4 samples.

Results

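Stressed mice that lacked the long form of the dopamine D2 receptor (D2LR-KO) were compared with stressed wild-type mice (WT) on 1 microarray each. The pair was taken by its titles from the 4 arrays of the study. Of 16383 genes with a probe, all 15640 that were detected on at least 1 of the 2 arrays were compared.

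The tissue on every array was labelled dorsal raphe nucleus, and RNA of 5 males of the C57BL/6J strain, 10 weeks old, was pooled for each array. Both groups of the comparison had been forced to swim on 4 days, 6 min each time, and were dissected 12 h after the final swim. The other 2 arrays held WT mice that had not been stressed and stressed mice without the whole D2 receptor (D2R-KO). No knockout array without stress was among them, so the comparison holds stress constant and does not show what D2LR loss does at rest. The sources used here do not say how the deletion was made or whether the WT mice were littermates. A pool of 5 mice gives 1 value per gene, so no difference below has a replicate error and none could be tested.

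The D2 receptor is coupled to inhibitory G proteins. Its gene, Drd2, is spliced into a long and a short form that differ by a stretch in the third intracellular loop, and the short form is often described as the autoreceptor of dopamine neurons. The dorsal raphe nucleus holds many of the serotonergic neurons that project to the forebrain, which carry the serotonin 1A receptor as an autoreceptor. Dopamine fibres reach these neurons, and repeated forced swimming is used in rodents as an inescapable stressor.

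Values are given in 2 forms. The authors' deposited intensity has a median of 25 on every array, and in what follows its values stand in the order non-stressed WT, stressed WT, D2R-KO and D2LR-KO. A log2 fold is log2(signal + 50) on the D2LR-KO array minus that on the stressed WT array unless another array is named. The added 50 makes it understate the differences of dim genes. Because RNA was measured in whole tissue, fewer cells of a type and less RNA per cell cannot be told apart in any of these values.

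The stressed WT array stood apart from the other 3. Across genes it correlated with them at r = 0.958 to 0.966, while the other pairs of arrays correlated at r = 0.990 to 0.994. Over all genes the log2 fold had an SD of 0.446 in this comparison, of 0.213 when non-stressed WT replaced stressed WT and of 0.173 when D2R-KO did. Between 21363 and 21496 of 23465 gene spots lay above the detection limit on each array, and the median log2 fold in each of 24 printing blocks lay between -0.03 and 0.01. Repeated control spots differed between the 2 arrays with an SD of 0.04 to 0.21 on the log2 scale, which covers spots and not mice. The cause was not tested, and list medians are therefore given beside their value against non-stressed WT.

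The targeted gene did not separate the 2 arrays. Drd2 had deposited intensities of 26.8, 43.8, 20.9 and 48.3, so the D2LR-KO array was brighter than both WT arrays and the D2R-KO array the dimmest. Its log2 fold was 0.04, which flipped to -0.42 when the background was taken around each spot. Where its probe lies relative to the deleted part of the gene is not known here, and a probe outside that part checks nothing. Htr1a, which encodes the serotonin 1A receptor, had deposited intensities of 28.7, 22.6, 33.7 and 21.7. The 2 compared arrays were within a log2 fold of -0.02 of each other for Htr1a, or 0.04 with the background around each spot.

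Genes of serotonergic neurons were read next as a check of the tissue label, and the enzyme and transporter that define these neurons were higher on the D2LR-KO array. Tph2, the neuronal tryptophan hydroxylase that sets the rate of serotonin synthesis, had deposited intensities of 31.4, 10.7, 264.6 and 151.5. Both WT arrays were low and both knockout arrays high, without overlap. Its log2 fold was 2.19 against stressed WT, 1.55 against non-stressed WT and 0.39 against stressed WT with the background around each spot. Slc6a4, the serotonin transporter, had deposited intensities of 11.6, 6.8, 89.6 and 43.5 and a log2 fold of 1.05, or 0.78 in that setting. Gchfr, a regulator of the pterin cofactor that Tph2 needs, had deposited intensities of 19.4, 18.5, 87.1 and 60.7. Its log2 fold was 0.92, or 0.34 with the background around each spot. The order of the arrays was thus the same for Tph2, Slc6a4 and Gchfr, with the D2R-KO array above the D2LR-KO array.

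The rest of the serotonergic list did not share that size. Of 19 members compared, 4 passed 1.5-fold upward and 1 downward, and all 19 were detected on every array. Among all 15640 genes, 8.72% passed 1.5-fold upward and 8.2% downward. Every list count against stressed WT below is to be read beside these shares. They pool bright and dim genes, however. At 2-fold, 5.58% of the brightest of 4 equal classes were higher and 5.40% lower, and none of the dimmest class. A list of bright genes can therefore exceed the shares without differing from other genes as bright, which was not compared. The fourth higher member was Maoa, a monoamine oxidase, with deposited intensities of 180.3, 107.8, 239.1 and 217.8 and a log2 fold of 0.66. Pts, an enzyme of pterin synthesis, was lower at -0.75. The aromatic amino acid decarboxylase Ddc was at 0.58 and the vesicular monoamine transporter Slc18a2 at 0.24. Among transcription factors of these neurons, Gata2 was at 0.43, Gata3 at -0.26, Lmx1b at -0.22 and En1 at 0.07. When the background was read around the spots, Gata2 flipped to -0.09 and En1 to -0.06. The list median was -0.01, the same as over all genes, it was 0.04 with arrays scaled to 1 median, and it was 0.19 against non-stressed WT. Summed over the list, deposited intensity was 6308.1, 5809.6, 9089.3 and 8634.8. No probe was annotated here as Fev, the transcription factor often used to mark these neurons.

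On the D2LR-KO array 409 genes were higher by 2-fold or more, which is 2.62% of those compared, and 286 were lower by as much, which is 1.83%. Together they made 4.44%. All 695 were detected on both arrays, so none of these folds is a bound. The higher genes were 58.8% of the 695, a share that was 92.0% with each array scaled to 1 median (735 higher, 64 lower) and 88.7% in the authors' deposited values (739 higher, 94 lower). The excess of higher genes thus varied with the scaling. Against non-stressed WT, the same D2LR-KO array had 17 genes past 2-fold upward (0.109%) and 48 downward (0.308%). Of 4 equal classes of brightness, the dimmest had no gene past 2-fold and the brightest had 218 higher and 211 lower. The value added to each signal shrinks the folds of dim genes most, so these counts cannot show that dim genes differed less.

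Most of these differences followed the stressed WT array. It lay at least 1.5-fold below all 3 other arrays for 363 of the 409 higher genes (88.8%), against 5.50% of all genes compared. It lay at least 1.5-fold above all 3 for 249 of the 286 lower genes (87.1%), against 5.40% of all genes. Since the stressed WT array is part of the comparison, these shares describe where the genes lay and are no separate evidence. The D2LR-KO array lay at least 1.5-fold above the other 3 for 36 genes (0.23% of all genes compared), 25 of them among the 409. It lay below them by as much for 6 genes (0.038%), 3 of them among the 286. Both knockout arrays lay at least 1.5-fold above both WT arrays for 19 genes (0.12%), 14 of them among the 409. They lay below both for 57 genes (0.36%), 32 of them among the 286. The genes are described below in these 3 groups, which share some members.

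**Figure D1:**
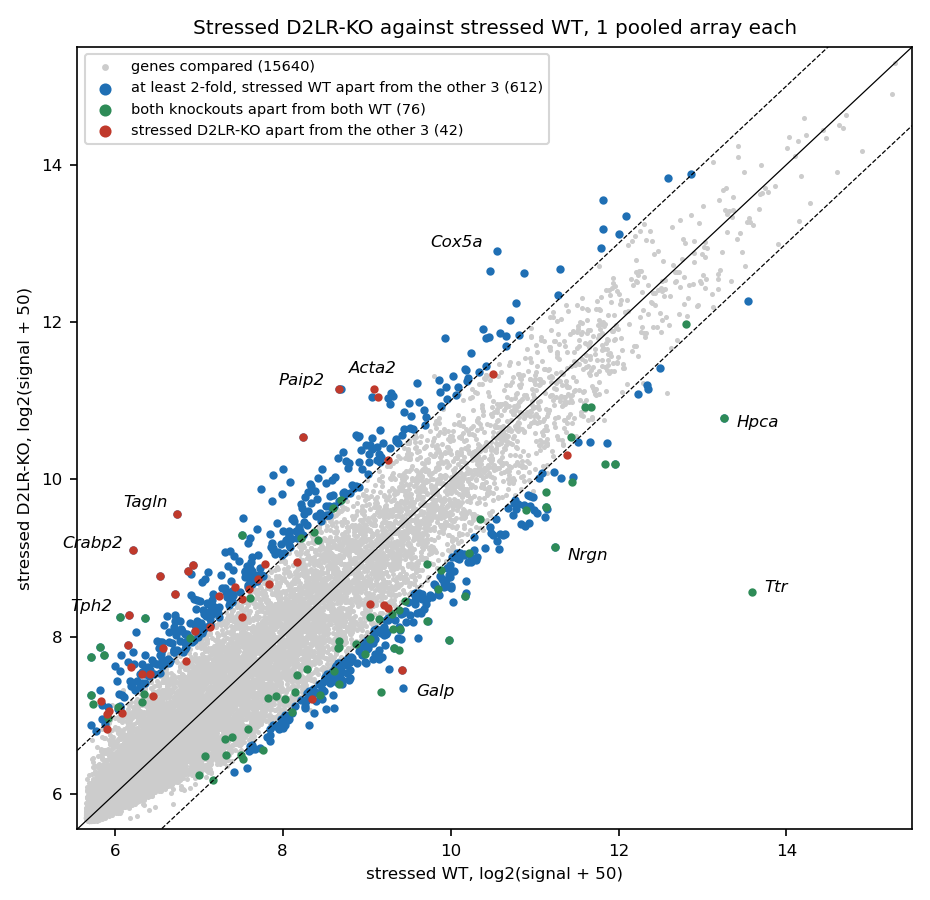
Each of the 15640 points is 1 gene, placed by its log2(signal + 50) on the stressed WT array (horizontal) and on the stressed D2LR-KO array (vertical); the dashed lines mark 2-fold. Blue points are at least 2-fold apart with stressed WT apart from the other 3 arrays (612), and green (76) and red (42) points, drawn over them, mark genes with both knockouts or D2LR-KO apart by 1.5-fold, so that red points such as Tagln, Crabp2 and Acta2 lie along the upper edge.

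The 15 highest genes named by the rule were led by matrix and smooth muscle genes. Crabp2, a retinoic acid binding protein, had deposited intensities of 113.9, 14.7, 94.3 and 300.8 and was 7.37-fold higher on the D2LR-KO array than on the stressed WT array. Tagln, the smooth muscle protein transgelin, had deposited intensities of 116.7, 32.6, 137.2 and 426.4 and was 7.05-fold higher. Mgp, matrix Gla protein, had deposited intensities of 608.0, 177.0, 759.8 and 1364.6 and was 5.55-fold higher. In all of these the D2LR-KO array was the brightest and the stressed WT array the dimmest. Igfbp7, an insulin-like growth factor binding protein of vessels, was 4.89-fold, Ogn (osteoglycin) 4.73-fold, Serpind1 (heparin cofactor II) 4.33-fold and Acta2 (smooth muscle actin) 4.15-fold higher, and they shared that order.

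Other leading genes set the stressed WT array against the rest. Paip2, a regulator of poly(A)-binding protein, had deposited intensities of 1147.1, 179.9, 1465.7 and 1362.9 and was 5.45-fold higher, but differed from non-stressed WT by a log2 fold of 0.19. Cox5a, a subunit of cytochrome c oxidase, had deposited intensities of 3464.7, 685.1, 4633.0 and 4702.3 and was 5.08-fold higher, with 0.37 against non-stressed WT. Slc17a6, which loads glutamate into vesicles of subcortical neurons, had deposited intensities of 578.3, 95.0, 654.1 and 621.4 and was 4.51-fold higher, with 0.03 against non-stressed WT. For these genes 3 arrays were alike and the stressed WT array was low. Sucla2, a subunit of succinyl-CoA synthetase, was 4.40-fold higher and Ctsl, the lysosomal protease cathepsin L, 4.37-fold higher, with log2 folds of 0.08 and 0.46 against non-stressed WT. Spp1, the secreted phosphoprotein osteopontin, was 4.53-fold higher and the hindbrain homeobox genes Hoxb5 and Hoxa5 were 4.15-fold and 4.04-fold higher.

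On the lower side, Ttr stood alone in size. Ttr encodes transthyretin, which the choroid plexus secretes into the cerebrospinal fluid. It had deposited intensities of 12884.0, 5720.2, 20.3 and 193.1 and was 32.5-fold lower on the D2LR-KO array than on the stressed WT array. Both WT arrays were bright and both knockout arrays dim. Nrgn, the calmodulin-binding protein neurogranin of forebrain neurons, had deposited intensities of 618.3, 1094.5, 316.1 and 310.4 and was 4.30-fold lower. Cartpt, the precursor of the peptide CART, had deposited intensities of 274.7, 451.7, 157.6 and 116.8 and was 4.06-fold lower. Nptx1, a neuronal pentraxin of glutamate synapses, had deposited intensities of 247.5, 250.0, 97.9 and 63.0 and was 3.65-fold lower. In these, too, both knockout arrays lay below both WT arrays.

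Galp, which encodes galanin-like peptide, had deposited intensities of 71.1, 305.6, 55.7 and 66.5 and was 4.24-fold lower, yet its log2 fold against non-stressed WT was -0.06. Only the stressed WT array was high. The same held for Btla, an inhibitory receptor of lymphocytes (2.98-fold lower, deposited 120.2, 464.5, 192.3 and 177.1), Slx1b, a nuclease subunit (3.04-fold), Pou2f1, a POU-domain transcription factor (3.21-fold), the olfactory receptor gene Olfr481 (3.09-fold) and the vomeronasal receptor gene V1ra3 (2.85-fold). Ywhaz, a 14-3-3 adaptor protein, was 3.59-fold, the huntingtin-associated protein Hap1 3.38-fold, Ly6h 3.12-fold, the inositol trisphosphate kinase Itpka 2.93-fold and the AMPA receptor auxiliary subunit Cacng2 2.88-fold lower.

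Of the 407 higher genes open to naming, 334 stayed at least 1.5-fold higher both with the background around each spot and in the authors' deposited values, and of 275 lower genes 230 did so. Tph2 on the higher side and Hpca, Hpcal4 and Zfp697 on the lower side were as large as the named genes but were not among those. Hpca, the neuronal calcium sensor hippocalcin, had deposited intensities of 3547.1, 4733.4, 1413.9 and 1042.5 and a log2 fold of -2.48, which was -0.35 with the background around each spot. Hpcal4 was at -1.66 and -0.40, and the zinc finger gene Zfp697 at -1.53 and -0.18, in the same pair of settings. Among the 15 named higher genes some shrank as well, with Paip2 at 2.45 and 0.61 and Slc17a6 at 2.17 and 0.82. Igfbp7 was at 2.29 and 0.85 and Hoxa5 at 2.02 and 0.65. Spp1 (2.18 and 2.38) and Acta2 (2.05 and 2.12) went the other way.

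**Figure D2:**
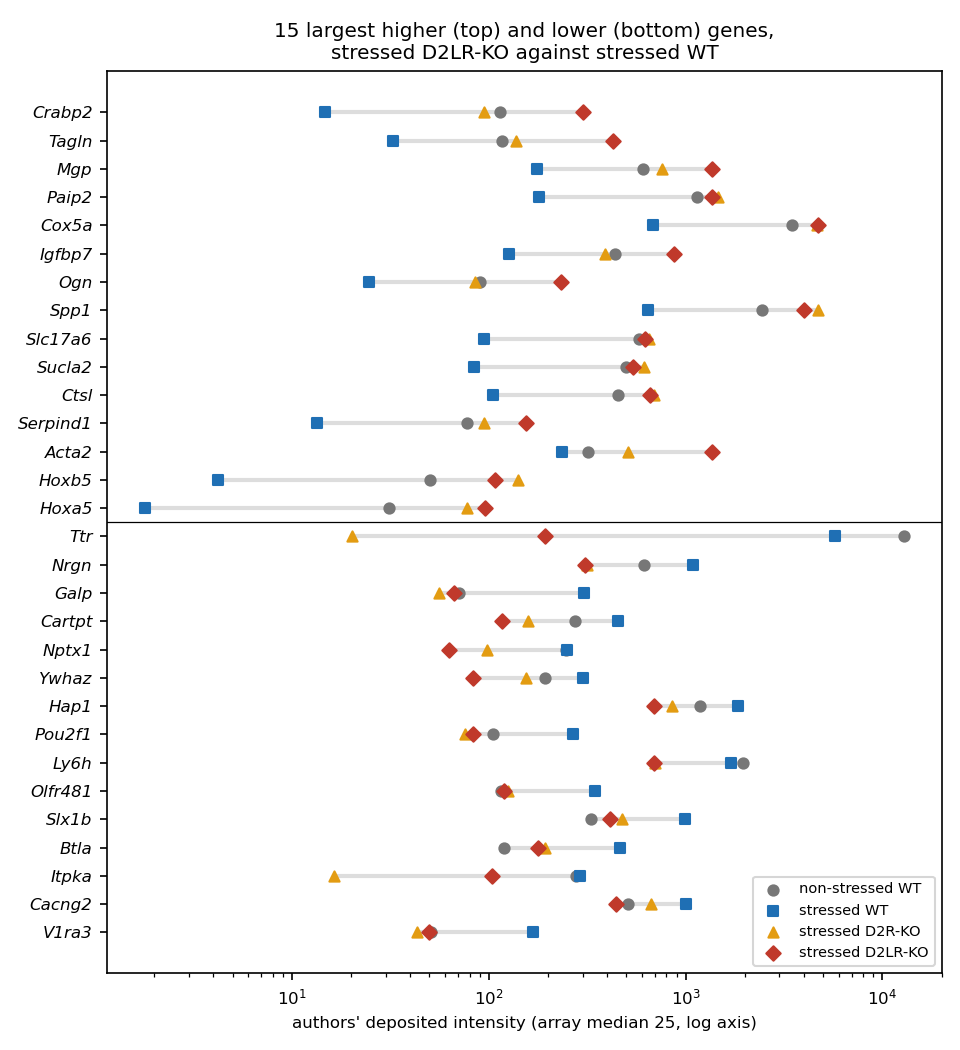
Deposited intensity (log axis) of the 15 largest higher and 15 largest lower genes on all 4 arrays, 1 symbol per array and 1 row per gene. In the upper block the stressed WT array (blue) is the lowest for every gene, and in the lower block it is the highest for all but Ttr and Ly6h, where non-stressed WT is higher.

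The 36 genes for which the D2LR-KO array itself stood apart included genes of smooth muscle and of the meningeal matrix. In 34 of them the stressed WT array was the dimmest of the 4. Of these 36 genes, 5 belonged to the smooth muscle list and 7 to the list of meninges, fibroblast and matrix genes. A further 22 were in no list. All 36 kept their direction against stressed WT with the background around each spot, and 30 stayed at least 1.5-fold higher. Whether D2LR-KO stayed above the other 2 arrays in that setting was not computed. When the stressed WT array was left out, an alternative added after the data had been seen, 40 genes lay at least 1.5-fold above the other 2 arrays.

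Contractile smooth muscle proteins give vessel walls their tone. Acta2 had deposited intensities of 319.9, 235.5, 512.7 and 1364.9, so the D2LR-KO array was the brightest by far and both WT arrays were close. Its log2 fold was 2.05 against stressed WT and 1.94 against non-stressed WT. The log2 folds of Tagln in the same pair of comparisons were 2.82 and 1.62. Cnn1, the actin-binding protein calponin, had deposited intensities of 12.5, 4.7, 24.7 and 55.0, with log2 folds of 1.34 and 1.01. Tpm2, a tropomyosin, had deposited intensities of 76.0, 54.2, 102.5 and 187.7, with 1.28 and 1.04. Myh11, the smooth muscle myosin heavy chain, had deposited intensities of 12.7, 6.5, 13.4 and 36.5, with 0.91 and 0.65. These 5 were the members of the 13 compared that reached 1.5-fold, all of them higher and none lower. The same number did so against non-stressed WT, where 0.745% of all genes were higher and 1.41% lower by as much. The list median was 0.35 against stressed WT and 0.31 against non-stressed WT, and the summed deposited intensity was 1093.9, 776.4, 1425.2 and 2756.4. The muscle genes outside the list were Pln, the calcium pump regulator phospholamban (0.78), and Mrvi1, a substrate of the cGMP-dependent kinase (1.21).

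Genes of smooth muscle are classical targets of serum response factor, which binds the CArG box, and promoters of this group were searched for it. The 300-base promoters of the RefSeq table (GRCm38.p6, from 250 bases before to 50 after each start) were searched on both strands. An exact CArG box was in 1 of 9 list members with a promoter there (Srf), against 1.81% of 27025 genes. After that search, boxes with at most 1 of 10 letters off were counted too, and these were in 4 of 9 members (44.4%), in 9 of the 26 genes of the D2LR-KO group with a promoter (34.6%) and in 23.8% of all genes. A gene counts here when any of its promoters holds a match. Of the 5 higher members, Acta2, Cnn1 and Tpm2 have a promoter in the table, and of these only Acta2 holds such a box. The 250 bases before the start are printed below for Acta2 (chr19:34255374-34255623, minus strand), for Cnn1 (chr9:22099003-22099252, plus strand), which holds none, and for the Igf2 start with the exact match (chr7:142661272-142661521, minus strand), 5′ to 3′, with the matched letters in capitals. Igf2 is shown because it was the only gene with an exact box among the 26. It is in the matrix list and not in that of smooth muscle, and 1 of its 4 starts holds matches. Acta2 holds 2 boxes with 1 letter off, and this Igf2 start holds 3 matches, of which CCATTTATGG is exact.
Acta2: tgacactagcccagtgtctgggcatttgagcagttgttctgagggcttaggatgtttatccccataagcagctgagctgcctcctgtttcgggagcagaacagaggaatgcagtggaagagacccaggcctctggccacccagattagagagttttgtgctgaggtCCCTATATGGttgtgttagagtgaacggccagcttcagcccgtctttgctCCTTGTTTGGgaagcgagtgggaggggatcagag
Cnn1: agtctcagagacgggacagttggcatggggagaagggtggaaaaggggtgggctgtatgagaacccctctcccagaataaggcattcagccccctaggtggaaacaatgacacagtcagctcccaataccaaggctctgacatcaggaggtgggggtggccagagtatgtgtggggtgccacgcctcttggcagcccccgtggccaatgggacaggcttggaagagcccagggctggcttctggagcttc
Igf2: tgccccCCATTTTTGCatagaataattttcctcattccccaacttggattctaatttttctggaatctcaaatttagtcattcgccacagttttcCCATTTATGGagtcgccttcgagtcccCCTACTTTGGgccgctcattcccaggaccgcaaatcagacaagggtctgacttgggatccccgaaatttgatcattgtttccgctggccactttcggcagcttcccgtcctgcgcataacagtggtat
A match is a description of the letters, and binding was not measured. The table holds no promoter for Tagln or Myh11.

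Genes of the meninges and of fibroblasts, which build the sheath around brain and vessels, were higher past 1.5-fold in 13 of 20 members, and no member was lower. The list median was 1.02, or 0.83 with the background around each spot and 0.47 against non-stressed WT, where 8 members were higher and none lower, against 0.745% and 1.41% of all genes there. Igf2, a growth factor secreted by meninges and choroid plexus, had deposited intensities of 567.6, 244.3, 355.3 and 1263.6 and a log2 fold of 1.91. Ogn had deposited intensities of 90.0, 24.8, 85.5 and 232.2 and a log2 fold of 2.24. Fn1, the matrix protein fibronectin, had deposited intensities of 129.6, 39.7, 117.3 and 259.8 and a log2 fold of 1.98. In each of them non-stressed WT and D2R-KO lay between the stressed WT and D2LR-KO arrays. The collagen genes Col3a1 and Col1a2 were at 1.28 and 1.01, with deposited intensities of 50.5, 26.1, 40.4 and 106.4 for Col3a1 and 121.8, 74.2, 96.5 and 201.4 for Col1a2. Against non-stressed WT the log2 folds were 1.17 for Crabp2, 1.11 for Ogn, 1.05 for Igf2 and Mgp, 0.84 for Fn1 and 0.61 for Col1a2. The summed deposited intensity of the list was 3866.8, 1772.3, 3219 and 6942.1, all members being detected on both arrays. Whether the amount of meninges or vessel in the dissected tissue differed between the pools was not tested.

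Outside both lists, Nupr1, a stress-induced nuclear protein, had deposited intensities of 68.9, 31.4, 67.8 and 190.9 and a log2 fold of 1.83. Emp3, an epithelial membrane protein, had deposited intensities of 100.8, 37.5, 80.5 and 243.1 and a log2 fold of 1.96. Vim, the intermediate filament vimentin, had deposited intensities of 407.5, 266.6, 313.6 and 712.8. Nupr1, Emp3, Tagln, Acta2, Crabp2, Ogn and Igf2 were the 7 genes whose D2LR-KO value was at least 2-fold above each of the other 3 arrays. Further genes of the group encode secreted or matrix proteins, with the retinol carrier Rbp4 at 1.73, the hyaluronan-binding Itih2 at 1.42, the complement inhibitor Serping1 at 1.20, Aspn (asporin) at 1.13 and the microfibril protein Mfap5 at 1.11. Fabp7, a fatty acid binding protein of glia, was at 0.83 and Bmp4, a bone morphogenetic protein, at 0.83.

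The 6 genes lowest on the D2LR-KO array included genes of synapses and ion channels. Syn2, the vesicle protein synapsin II, had deposited intensities of 1413.2, 1192.3, 1321.6 and 745.3 and a log2 fold of -1.07. Asic2, an acid-sensing channel, had deposited intensities of 111.1, 137.8, 118.9 and 56.6 and a log2 fold of -1.14. Kcnab1, a potassium channel subunit, had deposited intensities of 323.6, 256.8, 406.4 and 170.7 and a log2 fold of -0.80. In all 3 the D2LR-KO array lay below the others, which were close together for Syn2 and Asic2 and spread more widely for Kcnab1. Ywhaz was at -1.84 and Eif2s3x, a translation initiation factor subunit, at -0.90. Sgk1, a kinase induced by glucocorticoids, had deposited intensities of 691.4, 226.2, 429.7 and 173.2, and its log2 fold was -0.62, or -0.11 with the background around each spot, while it was -1.87 against non-stressed WT. Without the stressed WT array 16 genes lay below the other 2 arrays by 1.5-fold.

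**Figure D3:**
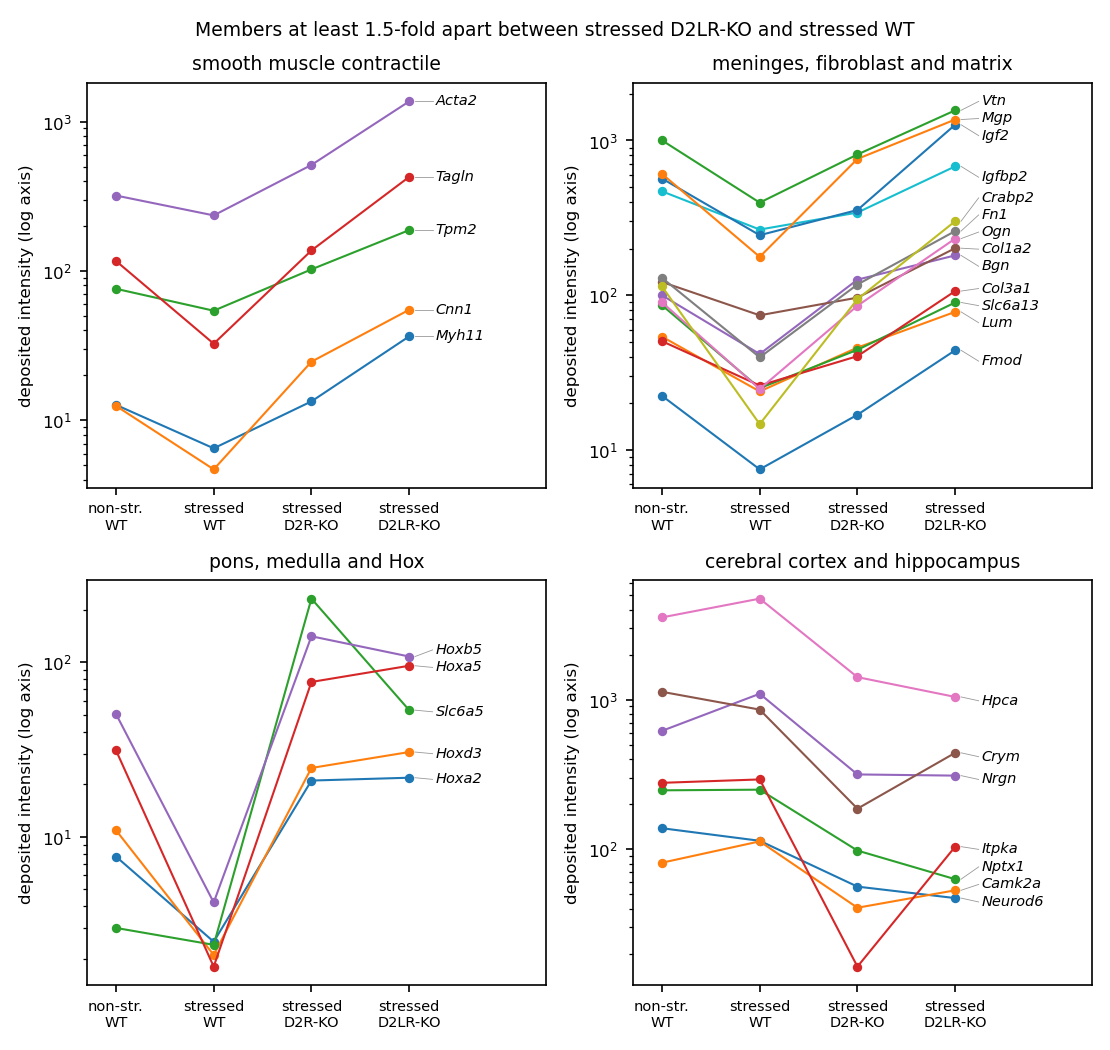
Deposited intensity (log axis) on the 4 arrays of every member of 4 lists that differed at least 1.5-fold between D2LR-KO and stressed WT; lines join the values of 1 gene. In the upper panels the D2LR-KO array is the highest for each gene, in the lower left both knockouts lie above both WT arrays for Hoxb5, Hoxa5, Hoxd3, Hoxa2 and Slc6a5, and in the lower right both lie below them for all 7 forebrain genes.

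Among other genes of the vessel wall, some members passed and none was lower by as much. Of 19 endothelial and pericyte genes, 8 were higher past 1.5-fold and none lower, with a median of 0.52 (0.30 with the background around each spot). Slco1a4, an organic anion transporter of brain vessels, had deposited intensities of 171.6, 66.3, 247.8 and 271.1 and a log2 fold of 1.49. Ly6c1 was at 1.11, the tight junction protein Cldn5 at 0.94 and the adhesion molecule Pecam1 at 0.80. Against non-stressed WT the endothelial median was 0.13 and no member reached 1.5-fold in either direction, where the smooth muscle and meningeal lists had 5 and 8. Of all genes, 0.745% were higher and 1.41% lower by as much there. Summed deposited intensity of the endothelial list was 2793.2, 1706.3, 2986.9 and 3208.3, so the stressed WT array was low and the other 3 were close.

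Of genes of immune cells, a minority passed 1.5-fold, nearly all of them upward, beside 8.72% of all genes upward and 8.2% downward. Among 15 microglial genes 4 were higher and none lower (median 0.30, or 0.08 against non-stressed WT), with the purinergic receptor P2ry12 at 0.93, the signalling adaptor Tyrobp at 0.88, the protease Ctss at 0.83 and Fcrls at 0.67. Among the members that did not pass, the receptor Csf1r was at -0.47 and the lysosomal protein Cd68 at -0.38. Of 8 white cell and MHC class II genes 3 were higher, none was lower and the median was 0.31, or 0.18 against non-stressed WT. H2-Aa, an MHC class II chain, had deposited intensities of 138.2, 81.5, 80.7 and 225.0 and a log2 fold of 1.03, Cd74, the invariant chain, was at 0.85 and S100a9, a neutrophil protein, at 0.88. Alas2, the heme synthesis enzyme of red cells and the single member of that list compared, was at 0.24. Interferon response genes had 2 of 17 higher and 1 lower (median 0.12, or -0.09 against non-stressed WT), namely Ifit3 at 0.72, Irf9 at 0.63 and Rsad2 at -0.69. Mx1, an antiviral GTPase, was at -0.56 and did not pass.

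Another group of genes separated both knockout arrays from both WT arrays. Besides Tph2, Slc6a4 and Gchfr, the 19 genes higher on the knockouts held genes of the hindbrain. Slc6a5, the neuronal glycine transporter, had deposited intensities of 3.0, 2.4, 231.9 and 53.2 and a log2 fold of 1.40. Hoxb5 had deposited intensities of 50.6, 4.2, 141.1 and 108.0, and Hoxa5 had 31.3, 1.8, 77.2 and 95.6. Irx2, another homeobox gene, had deposited intensities of 62.2, 18.9, 133.5 and 150.2 and a log2 fold of 1.88. In these genes the knockout arrays were the brightest pair, and for both Hox genes and Irx2 the stressed WT array was lower than the non-stressed one. Pvalb, a calcium buffer of fast-firing neurons, had deposited intensities of 140.7, 124.6, 405.5 and 336.8 and a log2 fold of 1.03.

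Of 13 genes of the pons, medulla and Hox list, 5 were higher past 1.5-fold and none lower. The median was 0.46, or 0.19 with the background around each spot and 0.29 against non-stressed WT. Its summed deposited intensity was 200.7, 106.9, 611.7 and 396. The remaining members past 1.5-fold were Hoxd3 at 0.96 and Hoxa2 at 0.71. Against non-stressed WT 3 members were higher and 1 lower by as much, beside 0.745% and 1.41% of all genes there. The lower one was the glycine receptor subunit Glra1 (-0.64), with deposited intensities of 53.2, 28.6, 52.8 and 23.1. Other genes higher on both knockouts were Acaa1b, a peroxisomal thiolase (1.90), the exchange factor Rasgef1b (1.77), the immunoglobulin M receptor Fcmr (1.53), the chromatin remodeller Chd7 (1.10), the kallikrein Klk6 (1.04), the growth factor Fgf1 (1.03) and Limk1, an actin-regulating kinase, at 0.96, which flipped to -0.16 when the background was read around the spots. Against stressed WT the other 18 of the 19 kept their sign there and 12 stayed past 1.5-fold. Whether both knockouts stayed above both WT arrays in that setting was not computed.

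The 57 genes lower on both knockouts included genes of forebrain neurons. Ly6h, a brain protein of the Ly6 family, had deposited intensities of 1947.9, 1709.9, 701.6 and 693.2 and a log2 fold of -1.64. Crym, a thyroid hormone binding protein of forebrain neurons, had deposited intensities of 1128.1, 857.5, 186.6 and 440.9 and a log2 fold of -1.28. Dlx1, a homeobox gene of forebrain interneurons, had deposited intensities of 116.0, 69.9, 13.5 and 21.1 and a log2 fold of -1.09. For each of them the lower WT array exceeded the higher knockout array by more than 1.5-fold. Neurod6, a transcription factor of cortical pyramidal neurons, was at -1.07 with deposited intensities of 138.1, 113.8, 56.2 and 47.1. Gria1, an AMPA receptor subunit, was at -1.29 with 1685.6, 997.1, 818.3 and 528.5. Against stressed WT, 56 of the 57 genes kept their sign with the background around each spot and 42 stayed past 1.5-fold. The small GTPase gene Arf3 went from -0.80 to 1.01. Whether both knockouts stayed below both WT arrays in that setting was not computed. Leaving out the stressed WT array gave 34 genes at least 1.5-fold above and 137 below non-stressed WT on both knockouts.

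Of 14 genes marking cerebral cortex and hippocampus, 7 were lower past 1.5-fold and none higher, with a median of -0.62, or -0.28 with the background around each spot. All 14 members were detected on both arrays. Its lower members were Hpca, Nrgn, Nptx1, Itpka, Crym, Neurod6 and the kinase subunit Camk2a (-0.95). Against non-stressed WT the median was -0.77, again with 7 lower and none higher, beside 1.41% and 0.745% of all genes there. The summed deposited intensity of the list was 6987.3, 7805.9, 2480.3 and 2535.9. Of 14 genes of choroid plexus and ependyma, 2 were higher and 2 lower, with a median of -0.09 (0.01 with the background around each spot) and summed deposited intensities of 16254.8, 7112.7, 2739.4 and 2926. Ttr made up most of that sum on both WT arrays, and 1 of the 14 was not detected on the D2LR-KO array. Tmem212, a gene of ciliated cells, was at -0.61, the insulin-like growth factor binding protein Igfbp2 at 0.93 and Enpp2 (autotaxin) at 0.65. Against non-stressed WT, 7 members of this list were lower past 1.5-fold, beside 1.41% of all genes, and the median was -0.56. Whether the dissected pieces held different amounts of forebrain, hindbrain or choroid plexus was not tested, and it touches the serotonergic values above as well.

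The third and largest group was set by the stressed WT array, and it included genes of energy metabolism. Many of these genes were bright, and their counts were not set beside those of other genes as bright. In respiratory complexes II to V with cytochrome c, 14 of 39 members passed 1.5-fold upward and 3 downward, and the stressed WT array lay apart from the other 3 for 14. Besides Cox5a, these included Uqcrfs1, the Rieske protein of complex III (1.77), Atp5c1, a subunit of ATP synthase (1.75), and Cycs, cytochrome c (1.61), while Cox7c was at -0.91. Cycs had deposited intensities of 1147.0, 347.4, 1550.4 and 1436.9, so it was low on the stressed WT array alone. The list median was 0.11, 0.38 with the background around each spot, 0.52 with arrays scaled to 1 median and 0.08 against non-stressed WT. In complex I, 6 of 35 were higher and none lower (median 0.18, or 0.11 against non-stressed WT), led by Ndufb4 at 1.47 and Ndufb11 at 1.19. In the tricarboxylic acid cycle 6 of 20 were higher and 1 lower (median 0.31, or 0.10 against non-stressed WT), with Sdhb, a subunit of succinate dehydrogenase, at 1.23 and the malate dehydrogenases Mdh2 and Mdh1 at 0.88 and 0.81, against Idh3g at -0.64. When the background was read around the spots, the higher members Ndufs1 of complex I (0.66) and Dlat of pyruvate dehydrogenase (0.65) flipped to -0.03 and -0.0078.

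Of the genes of protein synthesis, most members lay within 1.5-fold, and more of the rest were higher than lower. For all genes compared, 8.72% were higher and 8.2% lower by as much, shares that are not matched for brightness. Among cytosolic ribosomal proteins 11 of 40 members compared were higher and 2 lower (median 0.31, 0.57 with arrays scaled to 1 median and 0.08 against non-stressed WT), and the stressed WT array lay apart for 9. Rpl24 had deposited intensities of 2786.4, 789.6, 2993.2 and 2994.4 and a log2 fold of 1.45, Rps4x was at 1.11 and Rplp1 at -0.75. Translation factors had 6 of 25 higher and none lower (median 0.25, or 0.006 against non-stressed WT), all 6 with the stressed WT array apart, among them the initiation factors Eif3e at 1.66 and Eif4g1 at 1.32 and the elongation factor Eef1b2 at 1.02. Against non-stressed WT no member of the ribosomal or translation factor list reached 1.5-fold, where 0.745% of all genes were higher and 1.41% lower. Proteasome subunits had 3 of 27 higher and 3 lower (median 0.10, or -0.01 against non-stressed WT), with Psmc1 at 0.74 and Psma3 at -0.84. Psma6 (0.75) and Psmb2 (-0.59) flipped to -0.23 and 0.29 when the background was read around the spots. Common reference genes had 2 of 11 higher and 2 lower (median 0.28, or -0.10 against non-stressed WT), namely Tfrc at 1.32, B2m at 1.17, Ywhaz at -1.84 and Actb at -0.70.

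Some chaperone genes passed 1.5-fold in each direction, as did 8.72% of all genes upward and 8.2% downward. Heat shock and J-domain chaperones had 4 of 21 higher and 2 lower (median 0.09, or -0.21 against non-stressed WT). The higher members were the co-chaperone Dnajc7 at 1.40, the mitochondrial chaperone Hspa9 at 1.04, and the J-domain genes Dnajb4 at 1.09 and Dnaja1 at 0.88. When the background was read around the spots, Dnajb4 flipped to -0.62 and Dnaja1 to -1.10, while Dnajc7 and Hspa9 were at 1.09 and 0.94. The lower members were the small heat shock protein Cryab at -0.89 and Hsp90ab1 at -0.73. Genes of the unfolded protein response had 5 of 22 higher and 1 lower (median 0.05, or -0.17 against non-stressed WT). Atf4, a transcription factor of that response, had deposited intensities of 1005.7, 369.0, 1196.6 and 1061.6 and a log2 fold of 1.09. Hspa5, the main chaperone of the endoplasmic reticulum, was at 0.87, Dnajb9 at 0.84 and Pdia6, a disulfide isomerase, at -0.90.

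Immediate early genes respond within minutes to neuronal activity, and the list had 4 of 23 higher and 1 lower (median -0.02, 0.10 with arrays scaled to 1 median and -0.22 against non-stressed WT). Fos had deposited intensities of 155.9, 32.0, 108.4 and 124.4 and a log2 fold of 1.28. Dusp6, a phosphatase of the ERK pathway, was at 0.91, Ccn1 at 0.66, Ier2 at 0.64 and Fosb at -0.63. The D2LR-KO array lay below the non-stressed one for all of Fos, Dusp6, Ccn1 and Ier2, with log2 folds of -0.28, -0.50, -0.78 and -0.51. Thus these genes were higher than on stressed WT and lower than on non-stressed WT. Among glucocorticoid-induced genes 1 of 18 was higher and 3 lower (median -0.09, or -0.27 against non-stressed WT). Tsc22d3, which encodes the glucocorticoid-induced leucine zipper, had deposited intensities of 799.2, 207.6, 1015.5 and 700.9 and a log2 fold of 1.31, Klf9 was at -1.01 and the metallothionein Mt2 at -0.79. Of steroid and CRH receptors, 1 of 11 was lower, the oestrogen receptor Esr1 at -0.76, and none higher (median 0.04, or 0.02 against non-stressed WT).

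Among neuropeptide precursors, 8 of 25 members passed 1.5-fold downward and 1 upward. The median was -0.38, with -0.33 with the background around each spot and -0.24 against non-stressed WT. After Galp and Cartpt came Tac2, the neurokinin B precursor, with deposited intensities of 71.4, 50.6, 6.5 and 12.6 and a log2 fold of -1.25 against non-stressed WT. Nts (neurotensin) was at -0.96, Trh (thyrotropin-releasing hormone) at -0.83, Avp (vasopressin) at -0.77, Pmch (melanin-concentrating hormone) at -0.76 and Cck (cholecystokinin) at -0.68. Penk, the enkephalin precursor, was the higher member, with deposited intensities of 273.8, 110.8, 470.1 and 348.1 and a log2 fold of 1.21. Galp and Penk were extreme on the stressed WT array, whereas Tac2, Pmch, Cck and Cartpt were lower on both knockouts than on both WT arrays.

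Genes that act with the D2 receptor had 3 of 31 members higher and 8 lower, with a median of -0.10, or -0.07 against non-stressed WT. For all genes compared the shares were 8.72% higher and 8.2% lower. The D2 receptor signals through Gi and Go proteins to adenylyl cyclase, and regulators of G-protein signalling (RGS) end that signal. Adcy2, an adenylyl cyclase, had deposited intensities of 309.2, 492.0, 337.7 and 276.1 and a log2 fold of -1.11, or -0.18 against non-stressed WT. Rgs2 had deposited intensities of 563.8, 183.6, 650.7 and 526.9 and a log2 fold of 1.11, or -0.14 against non-stressed WT. Both genes were therefore extreme on the stressed WT array. The G-protein subunits Gnaz and Gnao1 were at -0.91 and -0.76, Gnb1 at 0.93 and Gnb5 at 0.64. The receptor kinase Grk3 was at -0.88, Rgs16 at -0.87, the calmodulin-dependent phosphodiesterase Pde1b at -1.04, Adcy9 at -0.63 and Rgs8 at -0.59. The Akt, GSK3 and PI3K list, a further branch of D2 signalling, had 3 of 20 higher and 2 lower and a median of -0.01 (0.02 with the background around each spot and -0.10 against non-stressed WT). Pik3ca, the catalytic subunit of PI3 kinase, was at 0.80, Pik3r1 at 0.71, Tsc2 at -0.80 and Pik3cb at -0.70.

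Dopamine neuron and receptor genes had 1 of 13 higher and 2 lower, with a median of -0.13, or -0.005 against non-stressed WT. Th, tyrosine hydroxylase, the enzyme that limits dopamine and noradrenaline synthesis, had deposited intensities of 897.3, 1155.5, 772.8 and 813.9 and a log2 fold of -0.90. Aldh1a1, an aldehyde dehydrogenase of dopamine neurons, was at 0.69 and the transcription factor Pitx3 at -0.66. Of 12 genes that flank Drd2 on its chromosome, 3 were lower and none higher, with a median of -0.25 that was 0.06 against non-stressed WT. They were Usp28 (-1.12, deposited 37.5, 109.2, 46.8 and 41.9), Htr3a (-0.76) and Ankk1 (-0.60). Usp28 and Ankk1 were bright on the stressed WT array, and Htr3a, a serotonin-gated channel subunit, was dim on both knockouts with 37.4, 43.0, 5.7 and 14.6. Htr3a was also the single member past 1.5-fold among 12 serotonin receptor genes (median -0.03, or -0.04 against non-stressed WT).

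Of the genes of inhibitory transmission, 33.3% of the glycine list and 18.2% of the GABA-A receptor list passed 1.5-fold in either direction. For the list of GABA synthesis and transport it was 50%. Over all genes compared, 8.72% passed upward and 8.2% downward, so the GABA-A share was near that of all genes. These lists are small, with 9, 11 and 8 members compared. Glycine transmission had 3 of 9 higher and none lower, with a median of 0.41 that was 0.17 with the background around each spot and -0.01 against non-stressed WT. They were Slc6a5, the receptor subunit Glra2 (1.03) and the scaffold Gphn, gephyrin (0.60). The GABA-A receptor list had Gabrg1 at 0.83 and Gabra5 at -0.83 as the members past 1.5-fold among 11 (median -0.16, or -0.53 against non-stressed WT). Of 8 genes of GABA synthesis and transport, 2 were higher and 2 lower (median -0.16, or -0.17 against non-stressed WT), namely the transporters Slc6a13 (1.12) and Slc6a12 (0.74), which also occur in meninges and vessels, the degrading enzyme Abat (-0.70) and the vesicular transporter Slc32a1 (-0.60).

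Among ionotropic glutamate receptors, 2 of 15 were lower and none higher (median -0.30, or -0.09 against non-stressed WT), namely Gria1 and Grik5, which was at -0.81 and flipped to 0.02 with the background around each spot. Besides Slc17a6, glutamate handling had the glutamine transporter Slc38a2 at 0.63 and Glud1, glutamate dehydrogenase, at -0.60, with a median of 0.19 over 12, or -0.05 against non-stressed WT. Voltage-gated channels had 1 of 19 higher and 2 lower (median -0.38, or -0.04 against non-stressed WT), with Cacnb4 at 1.01, Kcnq3 at -0.72 and Kcna2 at -0.69. The synaptic vesicle list had 2 of 22 higher and 5 lower (median -0.03, 0.13 with arrays scaled to 1 median and -0.12 against non-stressed WT). Besides Syn2, the fusion protein Stx1a was at -0.98 and Sv2b at -0.70, whereas Snap25 was at 0.87 with deposited intensities of 4991.0, 2019.1, 6393.9 and 5015.9. Snap25 also belonged to the pan-neuronal list, in which 1 of 15 was higher and 4 lower, the latter being Nefl (-0.75), Eno2 (-0.66), Gap43 (-0.64) and Syt1 (-0.59). The pan-neuronal median was -0.01, and it was -0.29 with the background around each spot, 0.43 with arrays scaled to 1 median and -0.06 against non-stressed WT.

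Glial lists had more higher than lower members past 1.5-fold, where all genes had 8.72% higher and 8.2% lower. Astrocyte genes had 4 of 16 higher and 1 lower (median 0.14, or -0.009 against non-stressed WT). Gja1, the connexin of astrocyte gap junctions, had deposited intensities of 2010.3, 747.9, 2293.7 and 2541.5 and a log2 fold of 1.32, which was 0.10 with the background around each spot. The neurotensin receptor Ntsr2 was at 1.23, or 0.23 in that setting. S100b was at 1.02 and the connexin Gjb6 at 0.96, or 0.75 and 1.09 in that setting, and the bicarbonate transporter Slc4a4 was at -0.83. Oligodendrocyte and myelin genes had 3 of 17 higher and none lower, with a median of -0.02 that was 0.08 with the background around each spot, 0.36 with arrays scaled to 1 median and 0.22 against non-stressed WT. Aspa, aspartoacylase, had deposited intensities of 370.7, 182.5, 623.6 and 761.7 and a log2 fold of 1.62, Ugt8a, an enzyme of myelin lipid synthesis, was at 1.40 and Trf, transferrin, at 1.37. Oligodendrocyte precursors had Bmp4 as the single higher member of 9, none lower, and a median of 0.10 that was -0.08 when the background was read around the spots and -0.008 against non-stressed WT.

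The remaining lists, all small, ranged from 10.0% of members past 1.5-fold for the circadian clock to 33.3% for the cerebellum. Of all genes compared, 8.72% passed upward and 8.2% downward. In the circadian clock list, Dbp, a transcription factor driven by the clock, had deposited intensities of 235.7, 644.4, 551.1 and 427.7 and a log2 fold of -0.90, and Arntl was at 0.78. They were the only members past 1.5-fold among 20 (median -0.03, 0.02 with arrays scaled to 1 median and -0.04 against non-stressed WT). The cerebellum list had 3 of 12 higher and 1 lower (median -0.20, or 0.02 against non-stressed WT), namely Pvalb, Zic2 (0.93), Zic1 (0.75) and Calb1, which was at -0.60 and flipped to 0.14 with the background around each spot. Cholinergic and noradrenergic genes had 2 of 9 lower and none higher, Th and the acetylcholine-synthesising enzyme Chat (-0.81), with a median of -0.40 that was 0.03 against non-stressed WT. Of 7 pituitary genes compared, the transcription factor Pitx1 was lower at -1.01 (median -0.12, or 0.03 against non-stressed WT).

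**Figure D4:**
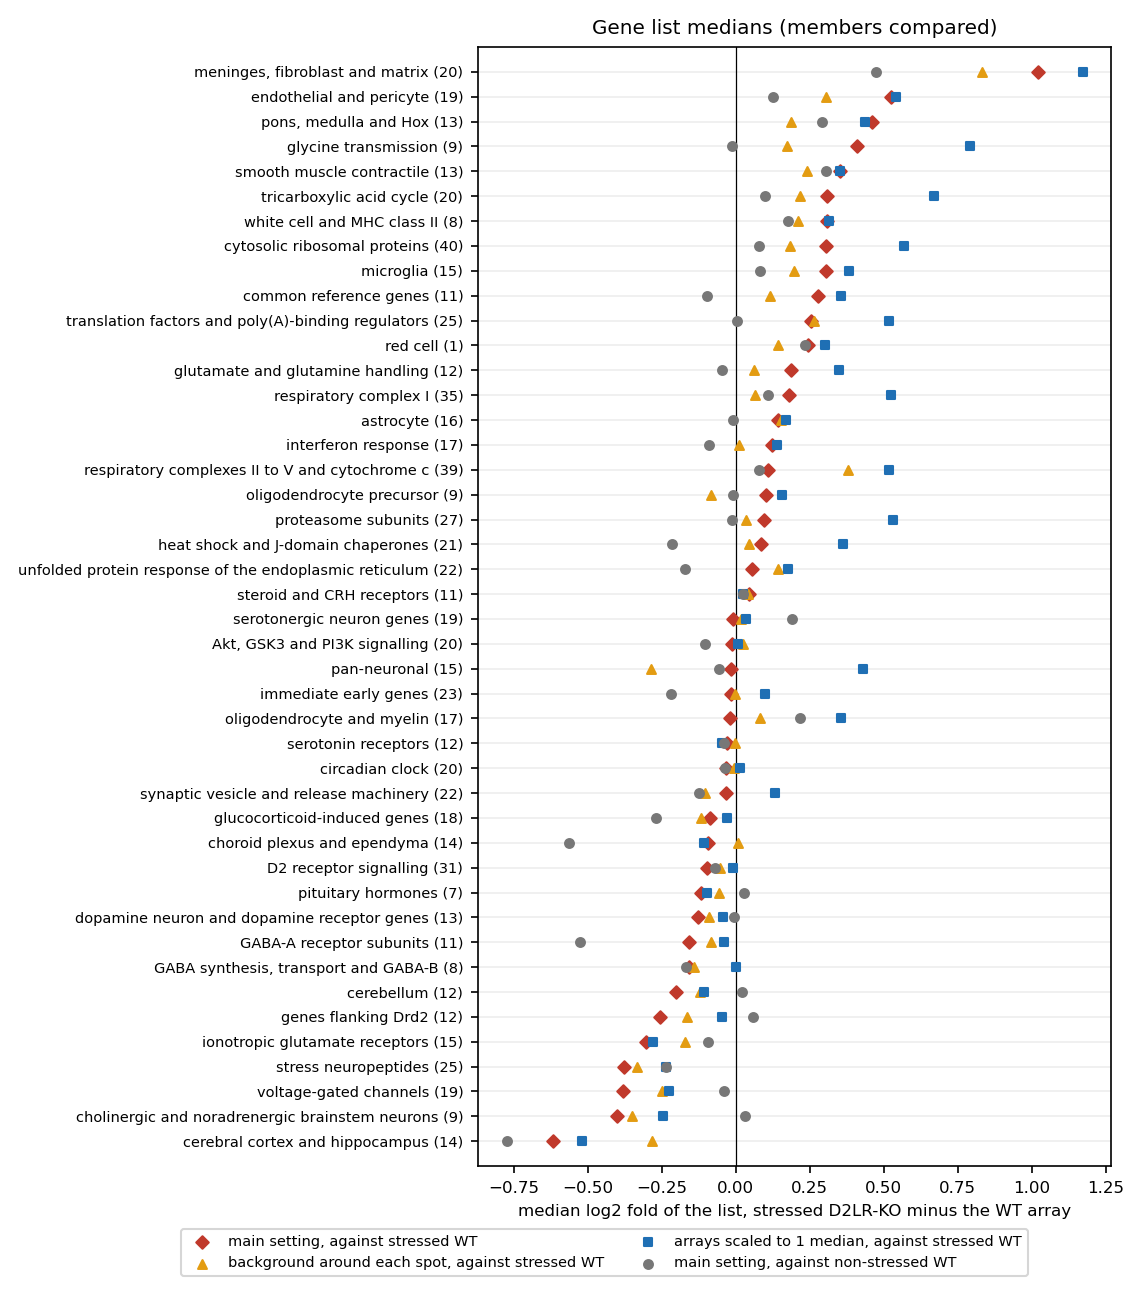
Median log2 fold of each of the 44 gene lists (1 row per list, members compared in brackets) for D2LR-KO against stressed WT in the main setting and in 2 other settings, and against non-stressed WT. Against stressed WT the list of meninges, fibroblast and matrix genes is the highest in each setting and that of cerebral cortex and hippocampus the lowest in the main and median-scaled ones; lists near 0, such as the pan-neuronal one, change sign with the setting.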

How the data were processed

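RNA labelled as dorsal raphe nucleus was measured on 4 single-colour arrays, 1 per group, each from a pool of 5 mice. Per the labels' protocols, RNA was purified with a Qiagen kit, amplified by the Ambion MessageAmp II method, coupled to Cy5 and treated as Toray prescribes. The file headers list 3 scans per array, at differing gain, and do not state how they were merged. Per the file headers, the scanner files hold spot intensity, and the authors' deposited value table holds linear intensity as well. Set against the scanner values, a deposited intensity is the spot median after a subtraction (36.7 to 38.8, the same for all spots of an array) and a division (by 1.51 to 2.05), so that the array median is 25. Between 1499 and 1540 probes of an array have a blank cell there.

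Signal was computed from the spot medians at 635 nm. Blank spots served as negative controls for the normexp correction (limma 3.58.1, function nec, R 4.3.3, offset 50), followed by log2 and quantile normalization over the 4 arrays. The brightness around a spot was not used for this because it followed the spot itself (r = 0.876 to 0.958). A probe was detected when its spot exceeded the mean plus 2 SD of the blanks (38.0 to 40.3, against a median spot of 67.1 to 80.1), which 91.0% to 91.6% of gene spots did, and genes detected on at least 1 of the 2 arrays were compared. The saturation level of the merged scans is unknown. The series' probe table gave 1 symbol to 16631 of 23473 probes and none to 6842. The RefSeq gene table held 12501 of 16446 symbols as given, updated 3886 and left 59 as they were. For 229 genes the brightest of several probes was used. Later steps ran in Python 3.11.15 with numpy 2.4.6, pandas 2.3.3 and matplotlib 3.10.9, and the procedure was tested on simulated data.

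Nothing could be tested with 1 array per group. Genes count as higher or lower from 2-fold, list members from 1.5-fold, and an array as apart from 1.5-fold against each of the other 3. The 15 genes named in each direction have the largest folds among genes that both arrays detected and whose signal on the brighter one reached the median of detected genes. They also have a named symbol and pass 1.5-fold the same way with the background around each spot and in the deposited values. Larger genes that missed that last condition are named too, as are up to 4 members per list (further members past 1.5-fold, or with a part in the study's question, were added after their values were seen) and genes for which D2LR-KO or both knockouts stood apart. Predicted genes, 2 higher and 11 lower, were counted and not named. The comparison, the 44 gene lists and these rules were chosen with earlier results of these data known. Alternatives were the background around each spot, no background correction, an offset of 16, scaling to 1 median, quantile normalization of the 2 arrays, the deposited values, other filters on dim probes and a mean over probes.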

Additional observations from a re-analysis of the deposited data

Results flagged for a closer look

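Probes without a gene symbol in the annotation used here stood outside the comparison of genes. Of 6840 such probes, 6160 were detected on at least 1 of the 2 arrays, and 302 of these were at least 2-fold apart (4.90%), 196 of them higher and 106 lower on the D2LR-KO array. Over named genes the share was 4.44%. With 1 array per group, no gene had enough samples to look for a single outlying one.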

How the results depend on the processing

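No paired analysis was possible because each group has 1 array. The 409 higher and 286 lower genes became 356 and 306 with local background, 336 and 234 with quantile normalization of the 2 arrays, 400 and 280 with the mean over probes, and kept their number under both other filters on dim probes. They became 249 and 177 without background correction, 781 and 571 with an offset of 16, 735 and 64 with arrays scaled to 1 median, 739 and 94 in the deposited values, 1364 and 1283 at 1.5-fold, and 17 and 48 against non-stressed WT. Without the stressed WT array, an alternative added after seeing the data, genes with D2LR-KO below the other arrays went from 6 to 16, genes with both knockouts above WT from 19 to 34 and those below from 57 to 137, whereas genes with D2LR-KO above went from 36 to 40. With the background around each spot, 10 of 298 genes past 1.5-fold (those named and list members) reversed, namely Limk1 (-0.16), Arf3 (1.01), Calb1 (0.14), Grik5 (0.020), Dnaja1 (-1.10), Dnajb4 (-0.62), Ndufs1 (-0.034), Dlat (-0.0078), Psma6 (-0.23) and Psmb2 (0.29). Of genes within 1.5-fold, Drd2, Htr1a, Gata2 and En1 changed sign too. Of 44 list medians, only those past the spread of repeated control spots (0.21) could count as reversed. Of these, 0 reversed in the planned settings and 4 did against non-stressed WT. The 4 were glycine transmission (-0.011), cholinergic and noradrenergic genes (0.030), reference genes (-0.10) and genes flanking Drd2 (0.058). Smaller medians took both signs in the planned settings for serotonergic, immediate early, Akt, circadian, synaptic vesicle and GABA synthesis genes. The same held for the choroid plexus, oligodendrocyte, oligodendrocyte precursor and pan-neuronal lists. The causes were not tested. Dim genes are limited by the blank spots and by the offset added to each signal, which shrinks their folds. No gene of the dimmest class reached 2-fold, but because of that offset this cannot show that dim genes differed less.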
